A study of Mus musculus with 10 samples.

Results

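A bidirectional promoter is a stretch of DNA from which a pair of genes is transcribed outwards, 1 on each strand, from 5′ ends that lie close together. The regions described here are the 594 promoter regions of this kind that were marked by H3K4me3 in all 3 populations of naive extra-embryonic endoderm (nEnd) cells that the study sorted. They were chosen by position: overlapping peaks of the 3 deposited consensus lists were merged into 9134 union regions, of which 6494 touched all 3 lists, and a region was kept where it held the transcription start site (TSS) of a minus-strand and of a plus-strand protein-coding gene, with the minus-strand TSS 1 to 1000 bp to the left of the plus-strand TSS. The rule therefore used the presence and the extent of the peaks, and neither is a finding here. These 594 regions were 9.15% of the shared regions and held 614 divergent pairs. They were compared mainly with the 4665 shared regions that held exactly 1 protein-coding TSS, called single-TSS regions below.

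nEnd is a stem cell culture of the primitive endoderm (PrE), the extra-embryonic lineage that lines the inner cell mass of the blastocyst. The cells carried an OCT4-mCherry reporter, in which a red fluorescent protein reports OCT4, were untreated, and were grown on mouse embryonic fibroblast feeders. FACS on the reporter and on PDGFRA, a PrE surface protein, gave Oct4+ nEnd (4 libraries), double-positive or DP nEnd (3 libraries) and Pdgfra+ nEnd (3 libraries), all of 1 reporter line. The mark was mapped by CUT&Tag, a method that tethers the Tn5 transposase to an antibody-bound histone mark, and each library consisted of peaks with a total signal (coverage summed over the peak) and a highest coverage.

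H3K4me3 is deposited around the TSS of active genes, where the nucleosomes that follow the start site carry most of it, and promoters rich in CpG dinucleotides are its usual sites. Divergent pairs of coding genes are common in mammals. They are often housekeeping genes, DNA repair genes among the best known, and the stretch between their start sites is short and often lacks a TATA box.

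No source used here says that coverage was scaled between libraries or how many reads each had. The depth of a library is thus unknown, and signal was used as a percentile rank, where 100 is the strongest, except in 1 alternative fit. The libraries held 3477 to 10545 peaks, and 82.0% to 88.8% of the peaks contained a coding TSS. Oct4+ nEnd replicates 3 and 4 stood apart, with 3477 and 4887 peaks, and the Oct4+ nEnd consensus was rebuilt exactly (7860 of 7860 peaks) from replicates 1, 2 and 4, so replicate 3 is the library that did not enter the choice of members. A peak at the 5′ end of *Pou5f1*, *Nanog* and *Sox2*, genes of the epiblast (Epi), was present in all Oct4+ and DP nEnd libraries and in no Pdgfra+ nEnd library. Of the 6 Epi markers in all, 5 were marked in each Oct4+ nEnd library and 4 to 5 in the DP nEnd libraries, and *Klf2* and *Zfp42* were marked in Pdgfra+ nEnd replicate 1, with none in the other Pdgfra+ nEnd libraries. Of the 7 PrE markers, 6 were marked in each DP nEnd library, 3 to 6 in the Pdgfra+ nEnd libraries and at most 1 in the Oct4+ nEnd libraries, and *Pdgfra* itself was not marked in Pdgfra+ nEnd replicate 2. Of 10 fibroblast markers, *Twist1* was the single one marked, in 5 libraries. A rank in bulk cells cannot tell fewer marked cells from less of the mark per cell.

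The sequences between the start sites show how little DNA separates such a pair. The letters below run from the base after the minus-strand TSS to the base before the plus-strand TSS of GRCm38, 5′ to 3′ on the plus strand, as read from the RefSeq copy of that genome. Capitals mark matches, on either strand, to 8 motifs: GABPA/ETS (ACTTCCGG), NRF1 (GCATGCGC), YY1 (AAGATGGC), SP1 (GGGCGG), the CCAAT box (CCAAT), the TATA box (TATAAA), the E-box (CACGTG) and the CRE (TGACGTCA). The first 2 belong to DNA repair and tumour suppressor genes, *Emg1/Phb2* to a region near the top of every library, the next 4 to regions whose rank differed between populations, and *Nt5c3b/Klhl10* to a region near the bottom.
Brca1/Nbr1: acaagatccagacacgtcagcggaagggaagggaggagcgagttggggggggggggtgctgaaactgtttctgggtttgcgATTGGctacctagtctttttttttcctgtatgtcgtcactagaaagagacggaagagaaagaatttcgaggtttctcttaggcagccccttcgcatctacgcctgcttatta
Wrap53/Trp53: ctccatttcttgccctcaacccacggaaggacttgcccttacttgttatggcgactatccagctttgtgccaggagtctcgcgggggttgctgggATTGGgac
Emg1/Phb2: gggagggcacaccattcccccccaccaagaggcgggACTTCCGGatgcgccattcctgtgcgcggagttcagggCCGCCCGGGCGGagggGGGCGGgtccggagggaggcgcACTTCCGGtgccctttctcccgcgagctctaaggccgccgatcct
Bckdha/Exosc5: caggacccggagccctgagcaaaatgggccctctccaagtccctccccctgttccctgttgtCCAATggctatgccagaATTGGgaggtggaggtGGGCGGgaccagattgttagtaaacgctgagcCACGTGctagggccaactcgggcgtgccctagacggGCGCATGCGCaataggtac
Alyref/Anapc11: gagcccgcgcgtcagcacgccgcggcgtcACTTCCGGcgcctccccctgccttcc
N4bp3/D930048N14Rik: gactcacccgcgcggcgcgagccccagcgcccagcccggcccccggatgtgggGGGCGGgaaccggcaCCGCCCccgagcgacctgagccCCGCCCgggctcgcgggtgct
Sgce/Peg10: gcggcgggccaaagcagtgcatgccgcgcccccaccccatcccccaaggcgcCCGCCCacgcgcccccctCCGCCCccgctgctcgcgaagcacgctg
Nt5c3b/Klhl10: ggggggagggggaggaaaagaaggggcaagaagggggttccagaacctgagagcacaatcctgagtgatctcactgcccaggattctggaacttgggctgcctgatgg

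The stretch of *Brca1/Nbr1* lies at chr11:101551956-101552148, that of *Wrap53/Trp53* at chr11:69580256-69580358 and that of *Emg1/Phb2* at chr6:124712179-124712335. *Bckdha/Exosc5* lies at chr7:25658982-25659163, *Alyref/Anapc11* at chr11:120598366-120598420, *N4bp3/D930048N14Rik* at chr11:51650843-51650953, *Sgce/Peg10* at chr6:4747208-4747305 and *Nt5c3b/Klhl10* at chr11:100441809-100441916. Each lies between the 5′ ends of its 2 genes and outside the exons and introns of both. The stretches of *Brca1/Nbr1* and *Wrap53/Trp53* each hold 1 CCAAT box on the minus strand as their only match, and that of *Emg1/Phb2* holds 2 GABPA/ETS matches and 3 SP1 matches. The stretch of *N4bp3/D930048N14Rik* is 82.9% G and C with 17 CpG, whereas that of *Nt5c3b/Klhl10* holds no CpG and no match.

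Across the 594 regions the distance between the start sites of the lead pair, the closest pair of the region, had a median of 119 bp, with quartiles at 63 and 222 bp. The shortest distance was 1 bp, at *Bag4/Lsm1* and *Slc7a6os/Prmt7*. Just inside the limit was *Btf3l4/Txndc12* at 987 bp. The closest pairs just outside it were *Serpina7/4930513O06Rik* at 1007 bp, which lay in no shared region, and *Gpr108/Trip10* at 1009 bp, which lay in one. In the genome 754 divergent pairs of coding genes lie within the limit, of which 614 (81.4%) were in these regions, 87 were in no union region, 35 were in regions of 2 of the lists and 17 in regions of 1 list. Most regions (538) held exactly 2 coding start sites, and 56 held more, up to 8 at *Polr2l/Tspan4*.

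Among pairs long used as examples of bidirectional promoters, *Brca1/Nbr1*, *Atm/Npat*, *Mcm4/Prkdc*, *Wrap53/Trp53* and *Tcf19/Cchcr1* were members. *Surf1/Surf2* lay in a member region only through the neighbouring pair *Med22/Rpl7a*, because its own 5′ ends overlap in the annotation. The 5′ ends also overlap in *Col4a1/Col4a2*, *Hspd1/Hspe1*, *Ppat/Paics*, *Mrpl18/Tcp1*, *Sirt3/Psmd13*, *Tk1/Afmid* and *Hars/Hars2*, which the rule leaves out and which stood in 336 shared regions of head-to-head genes with overlapping ends. *Col4a4/Col4a3*, *Col4a6/Col4a5* and *Psmb9/Tap1* lay in no union region. The *Tcf19/Cchcr1* region was 19874 bp wide and took in the start of *Pou5f1*, so its ranks are those of a peak shared with *Pou5f1* and are not read as ranks of the pair.

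The marked regions of bidirectional promoters were little wider than those of single start sites, and what differed was their shape. The median width was 5812 bp for the bidirectional and 5515 bp for the single-TSS regions, and 5684 bp for the members with exactly 2 start sites. In Oct4+ nEnd replicate 1 the peak reached a median of 2004 bp past the plus-strand TSS and 2082 bp past the minus-strand TSS. In the same library the peak of a single-TSS region reached 2500.5 bp downstream and 1449 bp upstream. Both arms of the bidirectional peaks were therefore of like length and shorter than the downstream arm of a single-TSS peak, in each of the 10 libraries. Of the single-TSS peaks, 85.5% to 89.2% reached further downstream than upstream. The 424 single-TSS regions with a noncoding gene that diverges within 1000 bp reached further upstream than the other 4241, for example 1702 against 1415 bp in Oct4+ nEnd replicate 1. The peaks of Pdgfra+ nEnd replicate 2 were the shortest on every side, with 1124 and 1099 bp in the bidirectional and 1441 and 691 bp in the single-TSS regions. Width and reach are given as a description, since the rule required a region to hold both start sites.

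**Figure D1:**
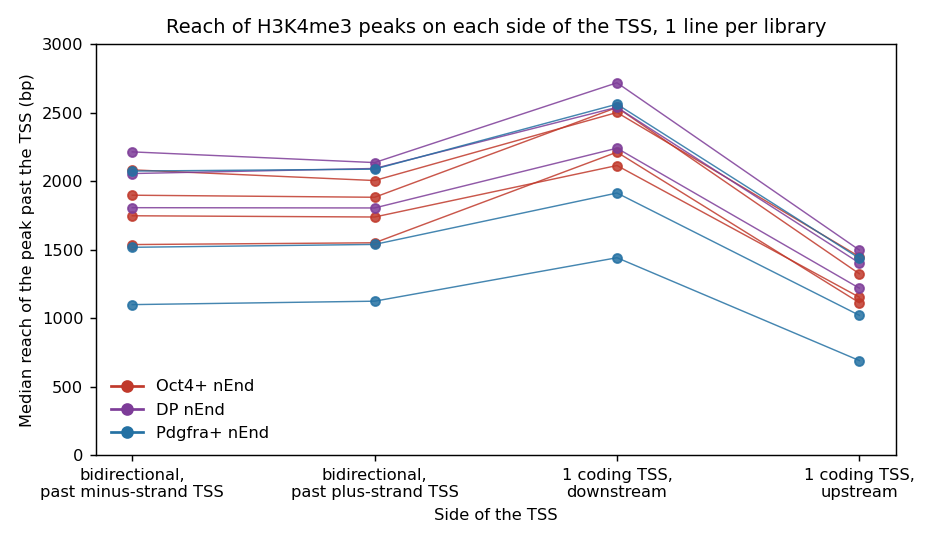
Median reach in bp (y axis) of the H3K4me3 peak past the TSS on each side (x axis), with 1 line per library coloured by population. In every library the 2 sides of a bidirectional region are nearly level and lie between the downstream and the upstream reach of single-TSS regions.

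A single peak nearly always covered both start sites. The share of found members with 1 peak over both ran from 97.3% in Pdgfra+ nEnd replicate 2 to 99.8% in Pdgfra+ nEnd replicate 1. It was 98.7% ± 0.866 in Oct4+ nEnd (SD, n = 4), 99.7% ± 0.169 in DP nEnd (SD, n = 3) and 98.8% ± 1.30 in Pdgfra+ nEnd (SD, n = 3). These shares are near their ceiling because the rule asked for both start sites in the merged peak, and they are given as a description. In 574 regions 1 peak covered both start sites in every library that had the region. Of the other 20, picked after their values were seen, *Grik5/Zfp574* had such a peak in 1 of 10 libraries, *Stap2/Mpnd* in 3 of 10 and *Nudt22/Trpt1* in 4 of 10.

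The summit, the stretch of highest coverage, fell on either side of a bidirectional promoter about equally often. Per library it lay on the side of the plus-strand gene in 48.4% to 52.9% of members, and between the start sites in 14.7% to 20.9%. In single-TSS regions it lay downstream of the TSS in 84.9% to 92.7%. A member's summit was on the same side in every library that had it in 287 of 594 regions (48.3%), 149 of them on the plus and 138 on the minus side. For single-TSS regions that share was 78.1%, with the side taken from the TSS and not from a midpoint. The median distance of the summit was 153.5 to 260 bp from the midpoint in members. It was 235 to 391.5 bp from the TSS in single-TSS regions, so the shares do not compare like with like. Among the regions found in all 10 libraries the shares were 40.7% (142 of 349) and 72.3%. The median SD of the summit position over 9 libraries was 108 bp in members and 106 bp in single-TSS regions.

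Some pairs kept the summit on 1 gene throughout. At *Sgce/Peg10* it lay 1438 to 1825 bp from the midpoint, on the side of *Peg10*, in 10 of 10 libraries. *Peg10*, a retrotransposon-derived gene needed for the placenta, and *Sgce*, which encodes epsilon-sarcoglycan, are imprinted and expressed from the paternal allele. At *Brca1/Nbr1* the summit was 123 to 862 bp from the midpoint on the side of *Nbr1*, an autophagy receptor gene, in 10 of 10 libraries. At *Wrap53/Trp53* it was 297.5 to 1308.5 bp from the midpoint on the side of *Trp53*, which encodes p53, again in all 10. At *Emg1/Phb2*, by contrast, it lay between -9.5 and -7 bp, just on the minus side, in 7 libraries and 27 to 275.5 bp to the plus side in the other 3.

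A summit that lay on opposite sides in every library of 2 populations was rare. Between Oct4+ nEnd and DP nEnd 1 of 460 members did so, against 0.614% of the bidirectional and single-TSS regions that could be compared. This was *Hps5/Gtf2h1*, a lysosome biogenesis gene paired with a subunit of TFIIH, whose summit lay 103.5, 107 and 107 bp to the *Gtf2h1* side in Oct4+ nEnd replicates 1, 2 and 4 and at -41, -44.5 and -22.5 bp, on the *Hps5* side, in DP nEnd. Oct4+ nEnd replicate 3 had no peak there. Between Oct4+ nEnd and Pdgfra+ nEnd 3 of 445 did so (background 0.537%), namely *Adprm/Sco1*, *Utp15/Ankra2* and *Fam210a/Rnmt*. Between DP nEnd and Pdgfra+ nEnd 2 of 559 did so (background 0.35%), *Slc25a32/Dcaf13* and *Zbtb49/Lyar*. These counts are near the background, and nothing is read from them about bidirectional promoters.

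Bidirectional regions ranked above single-TSS regions in each of the 10 libraries. Percentiles were taken over the regions that had a peak in the library, which were 362 members and 2125 single-TSS regions in Oct4+ nEnd replicate 3, 455 and 2946 in replicate 4, and nearly all regions in most other libraries. By highest coverage, which is not summed over the width, the median member with a peak stood at percentile 80.3, 72.2, 60.6 and 60.9 among all peaks of Oct4+ nEnd replicates 1 to 4. It stood at 76.1, 78.3 and 71.3 in DP nEnd and at 83.1, 68.9 and 69.8 in Pdgfra+ nEnd. The median single-TSS region with a peak stood between percentile 50.2 and 65.8. The difference was 15.4 ± 4.79 percentile points (SD, n = 10 libraries), positive in 10 of 10, with p = 0.00195 in an exact two-sided sign-flip permutation test, the smallest p that 10 libraries can give. The libraries measured the same regions, so this p speaks of libraries and not of promoters. Within quartiles of region width the difference averaged 13.3 points, and by total signal it was 15.6 ± 4.78 points (SD, n = 10 libraries). The head-to-head regions with overlapping 5′ ends, which the rule left out, stood at percentile 62.9 to 82.8, above the bidirectional regions in Oct4+ nEnd replicates 3 and 4. The 424 single-TSS regions with a divergent noncoding gene stood at percentile 53.6 to 71.5, and the other 4241 at 50.2 to 65.0. The former were thus nearer to the members, at 58.9 beside 60.9 in Oct4+ nEnd replicate 4.

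**Figure D2:**
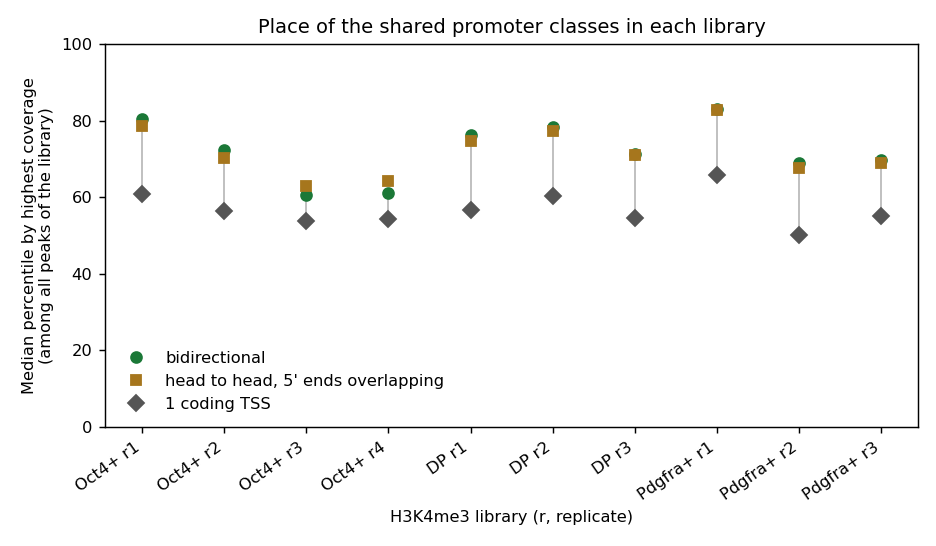
Median percentile by highest coverage among all peaks of a library (y axis, 0 to 100) in each of the 10 libraries (x axis), for bidirectional regions, head-to-head regions with overlapping 5′ ends and single-TSS regions; grey lines join the first and the last. Bidirectional regions lie above single-TSS regions in every library, by 6.59 to 19.5 points.

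The difference was smallest in the libraries with the fewest peaks, 7.02 points in Oct4+ nEnd replicate 3, which had no part in the choice of members, and 6.59 in replicate 4, and 14.6 to 19.5 in the other 8. In both libraries many regions of either class had no peak and did not enter. The members with exactly 2 coding start sites stood at percentile 58.4 in replicate 3 and 56.7 in replicate 4, where single-TSS regions stood at 53.6 and 54.4, so that the difference was smaller still. In the narrowest quartile of region width members stood higher in 9 of 10 libraries, and in the other quartiles in all 10. Over all members the mean difference was 12.3 ± 6.48 points in Oct4+ nEnd (SD, n = 4), 18.1 ± 1.39 in DP nEnd (SD, n = 3) and 16.9 ± 2.07 in Pdgfra+ nEnd (SD, n = 3). No difference between these means passed the test, with exact two-sided permutation p = 0.286, 0.343 and 0.50 for Oct4+ nEnd against DP nEnd, Oct4+ nEnd against Pdgfra+ nEnd and DP nEnd against Pdgfra+ nEnd, each 0.50 after adjustment. The smallest p that 4 against 3 libraries can give is 0.0286, and 3 against 3 cannot go below 0.10, so the last comparison could not pass. The part that the number of peaks plays in the lower values was not tested.

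Members with more distant start sites tended to rank higher. Averaged over the libraries, the median percentile by highest coverage was 65.3 for the 107 members with start sites up to 50 bp apart and 70.02 for the 154 above 50 and up to 100 bp. It was 76.9 for the 165 above 100 and up to 200 bp, 73.6 for the 108 above 200 and up to 400 bp, and 78.2 for the 60 above 400 bp. The ranges over libraries overlap between all bins (48.2 to 79.6 in the first, 68.9 to 86.9 in the last), so this is a description of medians.

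Bidirectional regions were found in more libraries than single-TSS regions, as were the other regions with more than 1 coding start site. The rule used presence in the libraries of the consensus lists, so the share over all 10 libraries is given as a description. The classes were compared within quartiles of width and not of rank. A peak was present in all 10 libraries for 349 members (58.8%) and for 1989 single-TSS regions (42.6%), and 20 members (3.37%) were found in 7 or fewer. In Oct4+ nEnd replicate 3, which did not enter the choice, 362 of 594 members (60.9%) had a peak, against 45.6% of single-TSS regions. The head-to-head regions with overlapping 5′ ends reached 57.1% in all 10 libraries and 59.2% in that library, and the 324 other regions with several coding start sites 61.4% and 66.4%, so the share was not particular to bidirectional regions. Single-TSS regions with a divergent noncoding gene reached 50% in all 10 libraries and 52.6% in Oct4+ nEnd replicate 3. The difference from single-TSS regions held within each quartile of region width, where 22.5%, 50.3%, 67.3% and 88.8% of members and 13.0%, 35.9%, 57.2% and 77.9% of single-TSS regions had a peak in that library. The difference in the share found in all 10 libraries was 16.1 percentage points, 11.9 within width quartiles, and 20.4 where only the 3000 strongest peaks of each library were kept. It shrank to 2.40 points where the peaks had to cover at least 50% of the region, a condition that 8.25% of members and 5.85% of single-TSS regions met in all 10 libraries.

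**Figure D3:**
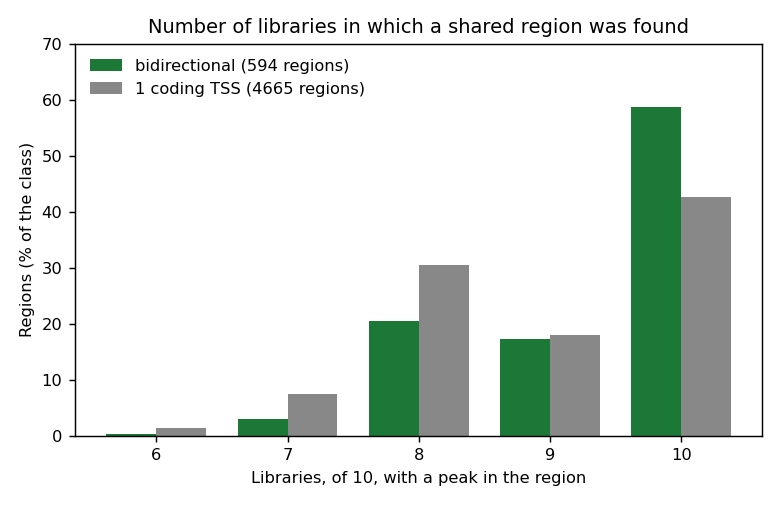
Share of regions in percent (y axis) that had a peak in 6 to 10 of the 10 libraries (x axis), for bidirectional (green bars) and single-TSS regions (grey bars). The bar at 10 libraries reaches 58.8% for bidirectional and 42.6% for single-TSS regions.

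The spread of the ranks over libraries was much alike in both classes. The median SD of the percentile by total signal over 9 libraries was 11.1 points in members and 11.9 in single-TSS regions. Within quartiles of the mean percentile it was 13.0, 13.3, 12.9 and 6.998 in members and 11.8, 14.0, 13.3 and 7.197 in single-TSS regions.

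The members with the highest ranks across libraries had varied genes. *Hnrnpa2b1/Cbx3*, an hnRNP gene paired with the gene of heterochromatin protein 1 gamma, known for a CpG island open in every tissue, lay between percentile 99.5 and 99.9 by total signal in all 10 libraries. *Hnrnpdl/Enoph1* (96.7 to 99.0), *Emg1/Phb2*, a ribosome biogenesis gene paired with prohibitin 2 (96.3 to 99.9), *Zbtb25/Zbtb1* (96.2 to 99.3) and *Ncapd2/Mrpl51*, a condensin gene paired with a mitochondrial ribosomal gene (95.2 to 98.6), followed. At the other end, *Nt5c3b/Klhl10* (percentile 0.266 to 28.4) and *Nup62cl/Pih1h3b* (0.979 to 42.0) were found in 7 libraries each, and *Nadsyn1/Dhcr7* (0.216 to 39.5), whose plus-strand gene encodes the last enzyme of cholesterol synthesis, in 8. *Vta1/Nmbr* and *Dad1/Abhd4* were found in 6 libraries, the fewest of all members. *Zfp277/Dock4* stood at percentile 0.0575 in Oct4+ nEnd replicate 3 and 21.7 in replicate 4, and at 80.2 to 89.2 in the other 8 libraries. *Sqstm1/Mgat4b*, with the gene of the autophagy receptor p62, stood at 0.144 and 24.7 in the same libraries and at 54.5 to 80.2 in the others. In the limma comparison of ranks described below, *Sqstm1/Mgat4b* was lower in Oct4+ nEnd than in Pdgfra+ nEnd by -30.7 points (limma adjusted p = 0.00374), and by -18.4 points without Oct4+ nEnd replicate 4 (limma adjusted p = 0.0465). Its difference from DP nEnd (-21.0 points, limma adjusted p = 0.0326) did not pass without that library (-11.7 points, limma adjusted p = 0.212) or without Oct4+ nEnd replicate 2, DP nEnd replicate 1 or DP nEnd replicate 2 (limma adjusted p = 0.0975, 0.0919 and 0.131). For *Zfp277/Dock4* the difference from Pdgfra+ nEnd (-27.5 points, limma adjusted p = 0.0394) fell to -8.15 points without Oct4+ nEnd replicate 4 (limma adjusted p = 0.068), and without any 1 of the DP or Pdgfra+ nEnd libraries it did not pass either (limma adjusted p = 0.0532 to 0.0826).

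Of the 3 widest members 2 held more start sites than a pair. *Polr2l/Tspan4* spanned 46846 bp with 8 coding start sites and 2 to 6 peaks per library, and *Med22/Rpl7a*, in the *Surf* gene cluster, spanned 22138 bp with 5. *Dido1/Gid8* spanned 20696 bp with 2. The narrowest were *Slf1/2210408I21Rik* at 2967 bp, *Nt5c3b/Klhl10* at 3007 bp and *Gm17657/Tbc1d22b* at 3104 bp.

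Among the DNA repair genes, the *Brca1/Nbr1* region (chr11:101549437-101554727), with the gene of the homologous recombination factor BRCA1, stood at percentile 82.5, 70.4, 24.6 and 37.2 by total signal in Oct4+ nEnd replicates 1 to 4. It stood at 81.0, 80.5 and 78.0 in DP nEnd and at 87.5, 44.8 and 70.1 in Pdgfra+ nEnd. The lowest values were those of Oct4+ nEnd replicates 3 and 4 and Pdgfra+ nEnd replicate 2, which are also the libraries with the fewest peaks. *Wrap53/Trp53* (chr11:69575805-69587025) stood at 98.2, 97.0, 98.3 and 95.7 in Oct4+ nEnd, at 95.1, 96.4 and 93.3 in DP nEnd, and at 96.1, 81.1 and 89.3 in Pdgfra+ nEnd. *Atm/Npat*, the gene of a DNA damage kinase beside that of a histone gene coactivator, ranged from 44.5 to 90.3, and *Mcm4/Prkdc*, a replicative helicase subunit beside the catalytic subunit of DNA-PK, from 46.7 to 87.7.

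Genes of DNA repair and replication were often in such pairs. Of the 7338 coding genes with a TSS in a shared region, 1208 (16.5%) belonged to a member pair, and of the 99 repair and replication genes listed there 40 did (40.4%). Several of them, such as *Brca1* and *Atm*, entered the list because they are known examples of divergent pairs, so the share is not independent of the rule. Their 39 regions had a median mean percentile of 67.9, against 70.9 over all members. Mitochondrial ribosomal proteins had 17 of 61 genes in member pairs (27.9%), among them *Mrpl51* of *Ncapd2/Mrpl51*, the highest at a mean percentile of 97.5. Subunits of the respiratory chain and ATP synthase had 17 of 67 (25.4%), led by *Uqcrh/Lrrc41* at 98.9. The proteasome had 7 of 35 (20%), led by *Psme2/Rnf31* at 94.8, chaperones 9 of 50 (18%), and aminoacyl-tRNA synthetases 5 of 28 (17.9%), led by *S100pbp/Yars* at 94.2. The shares of the proteasome, chaperones and synthetases lie near the 16.5% of all coding genes. No share of a gene list was tested.

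Cytosolic ribosomal proteins had 7 of 77 genes in member pairs (9.09%), with *Rpl7a* the highest at a mean percentile of 97.5. Of the 77 genes 43 stood alone in single-TSS regions, as did 4665 of all 7338 coding genes with a TSS in a shared region. C2H2 zinc finger genes named Zfp had 18 of 165 (10.9%). Histone genes had 7 of 31 (22.6%), all in 2 regions with mean percentiles of 34.3 and 43.7, neither of which was found in all 10 libraries. Separate lists of 13 Epi and 18 PrE markers, not those counted per library above, had 3 and 6 genes with a TSS in a shared region. None of these genes belonged to a member pair.

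The promoter windows of members, from 250 bp before to 50 bp after the plus-strand TSS, were rich in CpG. The median ratio of observed to expected CpG was 0.866 in members, 0.814 in single-TSS regions and 0.525 over the 21938 coding gene starts. Of the members 87.9% exceeded both a CpG ratio of 0.6 and 50% G and C, as did 78.5% of single-TSS regions and 41.0% of all gene starts. The single-TSS regions with a divergent noncoding gene reached 90.3%. With windows of 300 bp centred on the midpoint or on the single TSS the shares were 86.2% and 87.1%, so that the difference between the classes depended on the window.

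Matches to the GABPA/ETS motif were present in 13.8% of member windows, 8.40% of single-TSS windows and 4.70% of all gene starts. Matches to the YY1 motif were present in 10.4%, 4.82% and 2.92%. TATA box matches were rarer, at 3.20%, 5.53% and 12.6%. The CCAAT box was present in 42.1%, 38.3% and 39.0%, the SP1 motif in 71.7%, 70.5% and 43.0%, the NRF1 motif in 7.07%, 6.22% and 3.71%, the E-box in 11.95%, 11.2% and 7.75% and the CRE in 4.71%, 4.12% and 2.43%. The window of a member often holds the start sites of both genes, whereas a single-TSS window holds 1. In centred windows the GABPA/ETS share was 14.1% and 9.22%, the YY1 share 10.3% and 6.67% and the TATA share 3.03% and 3.49% in members and single-TSS regions. The CCAAT share was then 43.8% and 35.3%, the SP1 share 71.5% and 74.4%, the NRF1 share 7.07% and 5.90%, the E-box share 11.95% and 10.1% and the CRE share 4.88% and 3.94%. A match is a run of letters and not a bound site, and these shares were not tested.

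**Figure D4:**
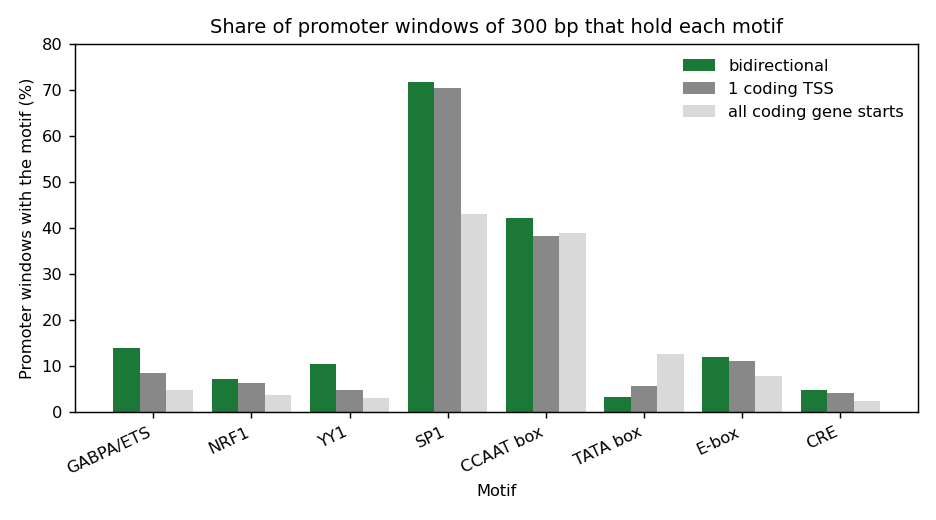
Share in percent (y axis) of promoter windows of 300 bp that hold each of 8 motifs on either strand (x axis), in bidirectional regions, single-TSS regions and all coding gene starts. The bidirectional bars reach 13.8% for GABPA/ETS, 10.4% for YY1 and 3.20% for the TATA box, beside 8.40%, 4.82% and 5.53% in single-TSS regions.

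The last comparison asked which members changed their place between the sorted populations. Regions with a peak in all 9 libraries of the consensus lists (439 members and 3917 regions in all) were ranked from 0 to 100 by total signal summed over the region in each library, and the ranks were compared with limma, with Benjamini-Hochberg adjustment over the 3917 regions. Oct4+ nEnd differed from both other populations at many regions, and DP nEnd and Pdgfra+ nEnd at few. The Oct4+ nEnd libraries also had the lowest coverage. The median highest coverage of their peaks was 59, 52, 22 and 38 in replicates 1 to 4. It was 107, 144 and 123 in DP nEnd and 143, 67 and 76 in Pdgfra+ nEnd. Population and coverage cannot be told apart in the comparisons with Oct4+ nEnd, and the part that coverage plays was not tested. Against DP nEnd, 26 members (5.92%) ranked higher in Oct4+ nEnd, where 16.2% of all regions did, and 92 (20.96%) ranked higher in DP nEnd, where 17.8% did. Against Pdgfra+ nEnd, 48 members (10.9%) ranked higher in Oct4+ nEnd, where 21.8% of all regions did, and 118 (26.9%) ranked higher in Pdgfra+ nEnd, where 23.4% did. The median difference of members was -3.27 points for Oct4+ nEnd minus DP nEnd and -3.35 for Oct4+ nEnd minus Pdgfra+ nEnd, beside 0.0851 and -0.485 over all regions. Between DP nEnd and Pdgfra+ nEnd 1 member ranked higher in DP nEnd, where 0.97% of all regions did, and none ranked higher in Pdgfra+ nEnd, where 0.128% did. In that comparison limma gave 34 members (7.74%) an unadjusted p under 0.05, beside 9.39% of all regions, and 0 members passed by highest coverage. Both comparisons with Oct4+ nEnd use the same 3 Oct4+ nEnd libraries.

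Ranked by highest coverage instead of total signal, far fewer regions of any kind passed. Of the members, 5 (1.14%) then ranked higher in Oct4+ nEnd and 16 (3.64%) in DP nEnd, where 3.19% and 3.55% of all regions did. Against Pdgfra+ nEnd, 12 members (2.73%) ranked higher in Oct4+ nEnd and 18 (4.10%) in Pdgfra+ nEnd, where 5.26% and 5.64% of all regions did. By highest coverage the share of members that ranked higher in DP nEnd was thus near that of all regions. The share that ranked higher in Pdgfra+ nEnd was below it. Oct4+ nEnd replicate 4, 1 of the 3 Oct4+ nEnd libraries in these fits, had 4887 peaks. Without it 32 of 559 members (5.72%) ranked higher in Oct4+ nEnd and 90 (16.1%) in DP nEnd, where 13.0% and 14.5% of all regions did. Against Pdgfra+ nEnd the members were then 66 (11.8%) and 107 (19.1%), where 19.5% and 19.6% of all regions passed. Without DP nEnd replicate 2 the counts against DP nEnd were 17 and 61 of 439 members (3.87% and 13.9%, beside 11.2% and 12.3% of all regions), and without DP nEnd replicate 3 they were 14 and 62 (3.19% and 14.1%, beside 11.9% and 12.5%). Without Pdgfra+ nEnd replicate 1 the share that ranked higher in Pdgfra+ nEnd was 20.05% (88 members), below the 21.1% of all regions, as it was without Oct4+ nEnd replicate 4. In each of these fits the share of members that ranked higher in Oct4+ nEnd was below that of all regions.

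The imprinted *Sgce/Peg10* region (chr6:4745029-4752125) had the largest fall in Oct4+ nEnd. Among the tested regions it ranked at 63.9, 42.9 and 33.8 in Oct4+ nEnd replicates 1, 2 and 4, at 93.5, 92.3 and 89.5 in DP nEnd, and at 96.8, 95.8 and 97.4 in Pdgfra+ nEnd. All Oct4+ nEnd libraries lay below all others. The difference was -44.9 ± 5.99 points (SE) from DP nEnd (limma adjusted p = 0.000301) and -49.8 ± 5.99 from Pdgfra+ nEnd (limma adjusted p = 8.39e-05), and by highest coverage it was -68.8 and -81.9 points (limma adjusted p = 0.00174 and 0.00042). Without Oct4+ nEnd replicate 4, which also adds regions to those ranked, the differences by total signal were smaller, -26.6 and -30.02 points (limma adjusted p = 0.000461 and 0.000136). In Oct4+ nEnd replicate 3, outside the fit, the region stood at percentile 28.2 among all peaks by total signal.

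The opposite pattern was strongest at *N4bp3/D930048N14Rik* (chr11:51641803-51653830), where *N4bp3* encodes a NEDD4-binding protein. It ranked at 97.1, 95.4 and 97.3 in Oct4+ nEnd, at 39.1, 50.4 and 55.6 in DP nEnd and at 16.2, 22.8 and 28.6 in Pdgfra+ nEnd. The 3 groups did not overlap. The difference from DP nEnd was 48.2 ± 6.25 points (SE; limma adjusted p = 0.000241) and that from Pdgfra+ nEnd 74.0 ± 6.25 points (limma adjusted p = 9.64e-06), and both passed by highest coverage. Its peak covered 6342 to 11582 bp in the 4 Oct4+ nEnd libraries and 2723 to 4310 bp in Pdgfra+ nEnd.

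*Bckdha/Exosc5*, a subunit gene of the branched-chain keto acid dehydrogenase paired with an RNA exosome gene, ranked at 62.3, 67.7 and 70.6 in Oct4+ nEnd, at 28.7, 26.2 and 26.4 in DP nEnd and at 25.1, 4.11 and 16.3 in Pdgfra+ nEnd. It was higher in Oct4+ nEnd by 39.8 ± 6.07 and 51.7 ± 6.07 points (SE; limma adjusted p = 0.000644 and 7.33e-05), also by highest coverage. *Alyref/Anapc11*, an mRNA export factor gene paired with that of the RING subunit of the anaphase-promoting complex, ranked at 69.2 to 86.7 in Oct4+ nEnd, 33.7 to 48.6 in DP nEnd and 29.7 to 41.1 in Pdgfra+ nEnd. By highest coverage its difference from DP nEnd did not pass (limma adjusted p = 0.0849).

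Against DP nEnd the other members that ranked higher in Oct4+ nEnd by the most were *Zfp661/Mrps5* (by 39.2 points) and *Adprm/Sco1* (by 33.9 points), where *Sco1* encodes a copper chaperone of cytochrome c oxidase. Against Pdgfra+ nEnd they were *Rps28/Ndufa7*, a ribosomal gene paired with a complex I gene (by 49.8 points), and *Gon7/Ubr7* (by 48.8 points). *Rps28/Ndufa7* ranked at 96.0, 93.1 and 95.5 in Oct4+ nEnd, at 83.6, 54.6 and 78.4 in DP nEnd and at 73.4, 20.7 and 41.0 in Pdgfra+ nEnd, so that its Pdgfra+ nEnd libraries spread widely. The differences of *Zfp661/Mrps5*, *Rps28/Ndufa7* and *Gon7/Ubr7* did not pass by highest coverage (limma adjusted p = 0.227, 0.123 and 0.0627).

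Lower in Oct4+ nEnd than in DP nEnd were *S100a1/S100a13*, a pair of calcium-binding protein genes, *Pqlc2/Akr7a5*, with a lysosomal amino acid transporter gene, *Xrcc3/Zfyve21*, with a homologous recombination gene, and *Klhl28/Togaram1*, with differences of -39.7, -39.7, -39.5 and -39.3 points. *Pqlc2/Akr7a5* ranked at 53.7, 51.4 and 35.2 in Oct4+ nEnd and at 86.8, 87.3 and 85.3 in DP nEnd. By highest coverage none of the 4 passed (limma adjusted p = 0.733, 0.0838, 0.19 and 0.059), and *S100a1/S100a13* turned to 8.69 points higher. Without Oct4+ nEnd replicate 4 the differences by total signal of *Pqlc2/Akr7a5*, *Xrcc3/Zfyve21* and *Klhl28/Togaram1* shrank to -23.2, -24.9 and -25.01 points and still passed (limma adjusted p = 2.2e-05, 0.00681 and 0.00623). The *S100a1/S100a13* region also holds the start of *Chtop*, its summit lay between -5712.5 and -5219.5 bp from the midpoint, on the minus side, in all 10 libraries, and 1 peak reached over both *S100a* start sites in 6 of them.

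Lower in Oct4+ nEnd than in Pdgfra+ nEnd were *Plagl2/Pofut1*, a zinc finger gene paired with the O-fucosyltransferase gene of the Notch pathway, *Lrrc42/Hspb11*, with an intraflagellar transport gene, *Arl16/Hgs*, with an endosomal sorting gene, and *Rgl1/Arpc5*, with an Arp2/3 subunit gene. *Plagl2/Pofut1* ranked at 1.89, 13.4 and 4.90 in Oct4+ nEnd, at 39.8, 42.1 and 32.6 in DP nEnd and at 52.1, 49.0 and 58.0 in Pdgfra+ nEnd. Its difference from Pdgfra+ nEnd was -46.3 ± 5.35 points (SE; limma adjusted p = 6.8e-05). The differences of the other 3 were -43.7, -41.5 and -40.2 points, and that of *Lrrc42/Hspb11* did not pass by highest coverage (limma adjusted p = 0.0633). *Lrrc42/Hspb11* ranked at 46.7, 59.4 and 8.63 in Oct4+ nEnd replicates 1, 2 and 4 and at 75.6, 95.5 and 74.8 in Pdgfra+ nEnd, and without replicate 4 its difference was -19.3 points (limma adjusted p = 0.012).

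The member that differed between DP nEnd and Pdgfra+ nEnd was *Shld2/Glud1*, a shieldin gene of double-strand break repair paired with the gene of glutamate dehydrogenase. It ranked at 93.1, 93.3 and 91.8 in DP nEnd and at 84.7, 72.7 and 80.4 in Pdgfra+ nEnd, a difference of 13.5 ± 2.58 points (SE; limma adjusted p = 0.0358). The call did not hold by highest coverage (limma adjusted p = 0.999), nor with the replicate number as a block (limma adjusted p = 0.0803), nor where 7 of the 9 libraries were left out 1 at a time.

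**Figure D5:**
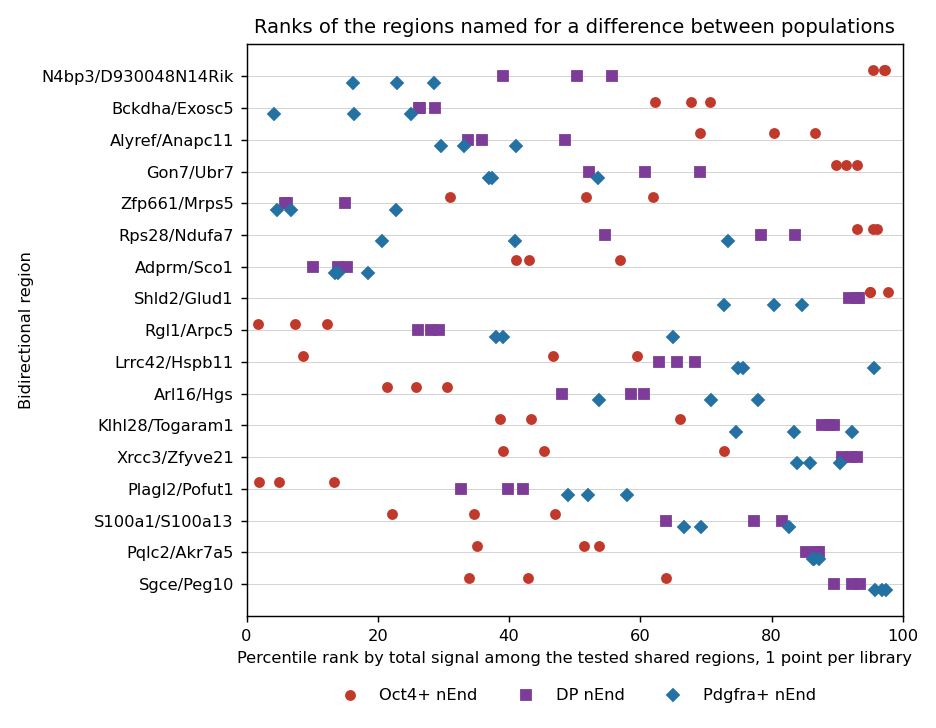
Percentile rank by total signal among the 3917 tested regions (x axis, 0 to 100) of the 17 bidirectional regions that are among the 5 largest called differences of a pair of populations and direction (y axis), with 1 point per library. Oct4+ nEnd points stand apart from the others at *Sgce/Peg10* on the left and at *N4bp3/D930048N14Rik* on the right.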

How the data were processed

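CUT&Tag for H3K4me3 was performed by the authors on sorted nEnd cells. The labels' processing notes name bcl2fastq 2.19.1, Bowtie2, SAMtools 1.12, deepTools, SEACR and bedtools 2.26.0 with build mm10 (GRCm38). The deposited peak files, called against IgG with the stringent setting, give signal as coverage, with no scaling between libraries stated, and the deposited consensus lists (score column constant) give positions made with DiffBind. DP, Pdgfra+ and Oct4+ nEnd held 8101, 7781 and 7860 consensus peaks.

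Members, lists and tests were chosen with earlier results of these data known. The pattern of 1 list (aminoacyl-tRNA synthetases) was corrected for letter case after the files were read. TSS are the 5′ ends of 21938 coding genes in the M21 release of GENCODE. A region was found in a library where a peak overlapped it by 1 bp, and took the percentile of its strongest peak. Ranks in the limma fit use total signal summed over the region. The fit used limma 3.58.1 in R 4.3.3 (lmFit, eBayes with trend) on Oct4+ nEnd replicates 1, 2 and 4 and the other 6 libraries, with a threshold of 0.05. Other tests were exact permutation tests. In simulated data 79.5% and 82.0% of changed regions were recovered among 3917 for Oct4+ nEnd against DP nEnd and Pdgfra+ nEnd. The simulated shift was large and of 1 size, with equal independent noise and no difference in depth or batch. These shares are thus not the power for the differences reported here. The study's legends and methods speak of biological replicates, and p-values measure the spread between these samples. The depth is unknown.

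Named regions were textbook pairs, those with the highest and lowest ranks, the fewest libraries, the extreme widths and distances, the 5 largest called differences per pair of populations and direction, the leading members of each gene list, and markers that are members. Pairs that lacked 1 peak over both start sites, kept or switched the side of the summit were named after their values were seen. Some regions that this rule names are not reported here. Scripts ran under Python 3.11.15 with pandas 2.3.3, pysam 0.24.0, scipy 1.17.1, matplotlib 3.10.9 and numpy 2.4.6. Alternatives covered the TSS definition, the distance limit, the merging of peaks, width, ranking, thresholds, a replicate block, windows and leaving out each library.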

Additional observations from a re-analysis of the deposited data

How the results depend on the processing

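The number of members was 864 with the TSS of any coding transcript, 550 with a limit of 500 bp and 594 with the peaks of all 10 libraries merged, and the difference in rank by highest coverage stayed positive, at 13.3 to 18.7 points, under every alternative run. The difference in the share found in all 10 libraries, 16.1 points, was 20.4 with the 3000 strongest peaks, 11.9 within width quartiles and 2.40 with at least 50% of the region covered. By highest coverage the members called by limma fell to 5 higher in Oct4+ nEnd and 16 higher in DP nEnd, to 12 higher in Oct4+ nEnd and 18 higher in Pdgfra+ nEnd. Of DP nEnd against Pdgfra+ nEnd, 0 members were then called. A fit on log2 total signal, quantile normalized between libraries, called 27 members (6.15%) higher in Oct4+ nEnd and 99 (22.6%) in DP nEnd. Of all regions it called 17.9% and 19.1%. Against Pdgfra+ nEnd it called 50 (11.4%) and 119 (27.1%), beside 22.7% and 24.3% of all regions. With all shared regions and absent ones at the lowest rank, 83 of 594 members (14.0%) were higher in Oct4+ nEnd and 144 (24.2%) in Pdgfra+ nEnd, beside 22.0% and 22.7% of all regions. Against DP nEnd these were 38 (6.40%) and 125 (21.04%), beside 16.8% and 17.3%, and 3 were higher in DP nEnd than in Pdgfra+ nEnd. By highest coverage *S100a1/S100a13* turned from -39.7 to 8.69 points for Oct4+ nEnd minus DP nEnd. The cause was not tested. Leaving out each library gave 14 to 35 members higher in Oct4+ nEnd than in DP nEnd (14 without DP nEnd replicate 3 and 17 without replicate 2), 61 to 112 higher in DP nEnd (61 without DP nEnd replicate 2), 40 to 66 higher in Oct4+ nEnd than in Pdgfra+ nEnd, 88 to 115 higher in Pdgfra+ nEnd, and 0 to 3 higher in DP nEnd than in Pdgfra+ nEnd. In all 9 of these fits the share of members higher in Oct4+ nEnd was below that of all regions, and that of members higher in DP nEnd above it. The share higher in Pdgfra+ nEnd than in Oct4+ nEnd was above that of all regions in 7 fits and below it without Oct4+ nEnd replicate 4 (19.1% beside 19.6%) and without Pdgfra+ nEnd replicate 1 (20.05% beside 21.1%). The share with 1 peak over both start sites, for Oct4+ nEnd minus Pdgfra+ nEnd, ran from -0.783 to 0.472 points and turned positive without Oct4+ nEnd replicate 3 or without Pdgfra+ nEnd replicate 1 or 3.

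The main fit did not pair libraries by replicate number. Same-numbered libraries correlated in their deviations from the group means from -0.102 to 0.322, and not every library correlated best with its own number. The correlations were 0.322, 0.257 and 0.247 for replicate 1, -0.0445, 0.159 and -0.102 for replicate 2 and 0.209 for replicate 3. Whether same-numbered libraries share a batch was not tested. Oct4+ nEnd replicate 4 is alone in its number, so it adds nothing to a fit with the number as a block. With the replicate block, 20 and 69 members (4.56% and 15.7%, beside 13.4% and 14.2% of all regions) passed for Oct4+ nEnd against DP nEnd, 41 and 93 (9.34% and 21.2%, beside 19.02% and 19.99%) against Pdgfra+ nEnd, and 0 for DP nEnd against Pdgfra+ nEnd. In permutation within replicate numbers the differences between populations in rank by highest coverage were -3.94, -2.70 and 1.23 points, a design whose smallest p is 0.25 and which could call nothing.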
